A study of Homo sapiens with 6 samples.

Results

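The features examined were 3 entries of the count table of NALM6 cells treated with THZ1: the Ensembl identifier ENSG00000266658 and the microRNA genes MIR3648 (ENSG00000264462) and MIR3687 (ENSG00000264063). They are 3 of the 57905 genes in the table, chosen by their share of the counts and their raw counts, which were higher in the THZ1-treated libraries. Their difference between treatments is therefore described without a test. NALM6 cells are an established human line derived from a B cell precursor leukemia. THZ1 binds covalently to CDK7, the kinase of the transcription factor TFIIH, and inhibits it. The series holds 6 RNA-SEQ libraries, 3 after 24 h in the solvent DMSO and 3 after 24 h in 500 nM of THZ1. Total RNA was isolated, and whether RNA with a poly(A) tail was then selected is not given in the sources used here. All libraries come from this single cell line, and nothing in the labels says whether the replicates were separate cultures, so the spread between them may be technical. Summed over genes, a DMSO-treated library held 11015480 to 11164840 counts and a THZ1-treated one 7876402 to 8314306. All 10 markers of B cell precursors had at least 10 CPM (counts per library size, on the usual CPM scale) with DMSO, and their sum was 3391 to 3598 CPM with DMSO and 1248 to 1295 CPM with THZ1. Of the 12 markers of other blood cells, 9 were below 1 CPM with DMSO, and their sum was 12.0 to 15.0 CPM with DMSO and 23.6 to 28.7 CPM with THZ1. The part of these shifts in the values given here was not tested.

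Ribosomal DNA is a long array of repeated units on the short arms of the acrocentric chromosomes, chromosome 21 among them. RNA polymerase I transcribes each unit in the nucleolus into a single precursor, which starts with the 5′ external transcribed spacer (5′ ETS) and then holds the 18S, 5.8S and 28S rRNAs. The spacers are cut out and degraded by the nuclear exosome while the rRNAs are assembled into ribosomes. MicroRNAs are short RNAs cut from hairpins, which guide Argonaute proteins to messenger RNAs, and some annotated microRNA genes lie within spacer sequence.

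In GENCODE 44 mapped to GRCh37, the build to which the reads were mapped, MIR3648 lies on the plus strand at chr21:9825832-9826011 and MIR3687 at chr21:9826203-9826263. They are 180 and 61 bases long, 191 bases apart, and overlap no other annotated gene. Both had 2 more full-length matches in the genome, all on the unplaced contig GL000220.1. The MIR3648 copies lie at GL000220.1:107909-108088 and GL000220.1:151881-152060, and the MIR3687 copies at GL000220.1:108280-108340 and GL000220.1:152252-152312. The whole shared stretch, chr21:9825438-9827582, is 2145 bases long and 99.39% identical to each copy on the contig, with 7 mismatches. Downstream of each MIR3687 copy, after 3685 bases, the contig holds a stretch 90.8% identical to the 5.8S rRNA pseudogene RNA5-8SP2. In the RefSeq table for GRCh38, MIR3648-1 lies inside the rRNA precursor gene RNA45SN2 and ahead of RNA18SN2, the place of the 5′ ETS, whereas MIR3648-2 lies in no other gene. ENSG00000266658, in contrast, has no entry in the GENCODE or RefSeq tables used. Its position, length and kind are not known here, its place in the ribosomal DNA could not be checked, and it is called by its identifier.

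The chromosome 21 sequence of MIR3687 is shown beside that of its first contig copy, because reads from the repeat can be assigned to chromosome 21 only where the copies differ. Capitals mark the base that differs, and positions are counted from 1 at the first base of the gene. MIR3687 differs at 1 position, C35G (the chromosome 21 base, its position, the contig base), and MIR3648 at 2 positions. The second contig copies have the same sequence as the first.
MIR3687, chromosome 21: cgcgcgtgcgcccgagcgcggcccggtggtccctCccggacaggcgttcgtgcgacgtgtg
MIR3687, contig: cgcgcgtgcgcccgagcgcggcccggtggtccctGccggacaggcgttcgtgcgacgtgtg
Both genes are rich in G and C, at 83.9% for MIR3648 and 78.7% for MIR3687, against a median of 45.9% over 3043 annotated microRNA genes, of which 24 and 55 were higher.

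**Figure D1:**
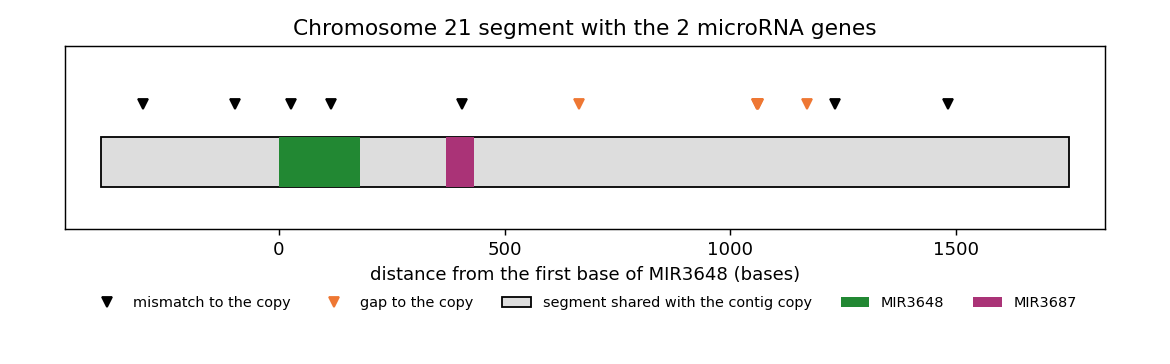
The stretch of chromosome 21 (2145 bases, grey) that matches the contig, with MIR3648 and MIR3687 drawn to scale; the x axis is the distance in bases from the first base of MIR3648, and triangles mark mismatches and gaps relative to the first contig copy. Of the 7 mismatches, 2 lie in MIR3648 and 1 in MIR3687.

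Read and fragment lengths are not given in the sources used here. Of the 100-base windows that touch MIR3648, 69.2% hold at least 1 difference from the contig copy, and for MIR3687 the share is 62.5%. With 50-base windows, the shares were 43.7% and 45.5%. Windows without a difference match the contig equally well. Whether the contig was part of the authors' genome index, and how reads with several matches were counted, is likewise not given, so it is not known whether the counts of these genes come from chromosome 21 alone or also from other copies. A count on such a gene shows a read from its span, not the mature microRNA.

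ENSG00000266658 ranked 2 or 3 among all genes by count in every THZ1-treated library. It held 3782, 3748 and 3425 counts in DMSO replicates 1, 2 and 3, and 152314, 159095 and 155645 counts in THZ1 replicates 1, 2 and 3. Every THZ1-treated library was far above every DMSO-treated library, and within a treatment the libraries lay close together. As a share of all counts on genes, it made up 0.0330% ± 0.00200 with DMSO and 1.92% ± 0.0954 with THZ1 (SD, n = 3 libraries each). The exact 95% binomial interval of the share in a single library, which covers counting error only, was 1.82% to 1.84% in THZ1 replicate 1 and 2.01% to 2.03% in THZ1 replicate 2, so that these libraries differed by more than counting error. The gene ranked 411 to 461 by count in the DMSO-treated libraries, so it was already well measured there. After scaling by TMM, the DMSO-treated libraries had a level of 302 ± 12.3 CPM and those treated with THZ1 one of 20899 ± 1002 CPM. The fitted log2 fold change was 6.11 (standard error 0.09). The CPM are relative to the other RNA counted, so more of this transcript per cell and less of other RNA per cell cannot be told apart.

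MIR3648 and MIR3687 went from a few counts to more than 1000. MIR3648 had 1, 2 and 3 counts in DMSO replicates 1, 2 and 3, and 1053, 1199 and 1856 counts in THZ1 replicates 1, 2 and 3. MIR3687 had 2, 0 and 6 counts with DMSO and 1356, 1404 and 1937 counts with THZ1 in the same order. For both genes the treatments did not overlap, and THZ1 replicate 3 was the highest library. As CPM of the library total, MIR3648 stood at 127, 152 and 226 with THZ1 against 0.0905, 0.182 and 0.269 with DMSO. MIR3687 stood at 163, 178 and 236 with THZ1 against 0.181, 0 and 0.537 with DMSO. A floor of 3 counts corresponds to 0.269 to 0.272 CPM in the DMSO-treated libraries, and all of them were at or under it for MIR3648. The ratio of the summed counts, each relative to the summed library totals, was 933 for MIR3648 with an exact 95% interval of 428 to 2543, and 800 for MIR3687 with an interval of 406 to 1853. For ENSG00000266658 the same ratio was 58.1, with an interval of 57.0 to 59.2. The intervals cover counting error only, and for the microRNA genes the ratios rest on 6 and 8 DMSO counts in all. The fitted log2 fold changes were 10.01 for MIR3648 (standard error 0.27) and 9.81 for MIR3687 (standard error 0.23). These depend on the few DMSO counts: for MIR3687 the value was 9.22 without DMSO replicate 2, which has none, and 11.08 without DMSO replicate 3, which has 6.

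**Figure D2:**
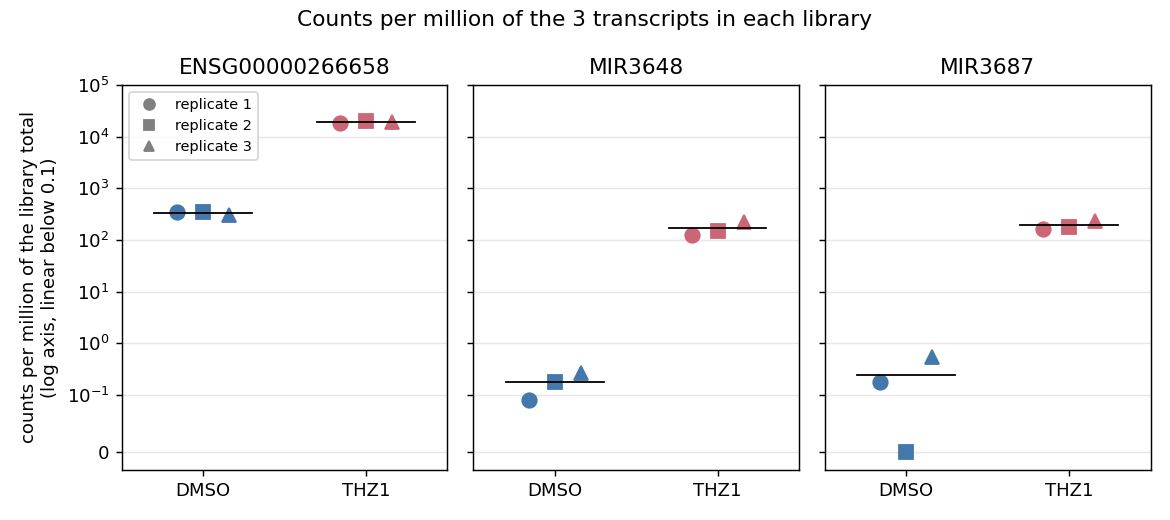
CPM of the library total (log axis, linear below 0.1) of ENSG00000266658, MIR3648 and MIR3687 in the 3 DMSO-treated (blue) and 3 THZ1-treated (red) libraries; symbols give the replicate and the black line the mean. The treatments do not overlap for any of the 3, and the DMSO-treated libraries of MIR3648 lie between 0.0905 and 0.269.

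Many genes were higher with THZ1, most by less than these transcripts. Of the 16622 genes tested, 43.5% were higher with THZ1 at an adjusted p-value below 0.05, 24.6% were higher with a log2 fold change of at least 1.5 as well, and for 43.4% every THZ1-treated library was above every DMSO-treated library. The 3 transcripts passed all of these limits, and since they were chosen for this, nothing is read from it. Of all calls at that fold, 65.6% were higher, a share that was 72.5% with upper quartile factors and 56.4% with library sizes alone. By fitted log2 fold change, ENSG00000266658 ranked 611, MIR3648 11 and MIR3687 15 of the 16622 genes, which restates how they were chosen.

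The second deposited table, on a log2 FPKM scale (fragments scaled to gene length and library size), lists both microRNA genes but not ENSG00000266658. MIR3648 had 1.61, 2.13 and 2.59 with DMSO and 10.70, 11.05 and 11.46 with THZ1 on that log2 scale. MIR3687 had 3.22, 0.32 and 4.62 with DMSO and 12.51, 12.51 and 12.78 with THZ1. The libraries stand in the order of their counts, with THZ1 replicates 1 and 2 equal to 2 decimals for MIR3687. The difference of the means was 8.96 for MIR3648 and 9.88 for MIR3687. By FPKM, MIR3687 ranked 10 to 13 of 16730 genes with THZ1, and by count it ranked 604 to 983 in the count table. FPKM divides by gene length, which is 61 bases for MIR3687. In the THZ1-treated libraries MIR3687 had 1.04 to 1.29 times the raw counts of MIR3648, and 3.08 to 3.80 times its counts per kb of annotated length. Of the 20 highest sorted values of this table, 18 to 20 were equal between libraries of a treatment, but only 3 or 4 between treatments. Within a treatment its values may therefore follow ranks within a library. What this means for the differences of the means was not tested.

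The 3 transcripts did not keep a fixed proportion to each other. MIR3648 and MIR3687 together made up 1.56% of the counts of the 3 in THZ1 replicate 1 (exact 95% binomial interval 1.496% to 1.62%) and 1.61% in THZ1 replicate 2 (1.55% to 1.67%). In THZ1 replicate 3 they made up 2.38% (2.30% to 2.46%), above the other two by more than counting error. The reverse held for ENSG00000266658, which had 63.2 and 61.1 counts for each microRNA gene count in THZ1 replicates 1 and 2 and 41.0 in replicate 3. With DMSO, 3, 2 and 9 microRNA gene counts were found beside 3782, 3748 and 3425 counts of ENSG00000266658, or 0.0793%, 0.0533% and 0.262%. Of the joint counts of the neighbouring genes, MIR3687 took 56.3%, 53.9% and 51.1% in THZ1 replicates 1, 2 and 3. The intervals for replicates 1 and 3, 54.3% to 58.3% and 49.5% to 52.7%, did not overlap.

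**Figure D3:**
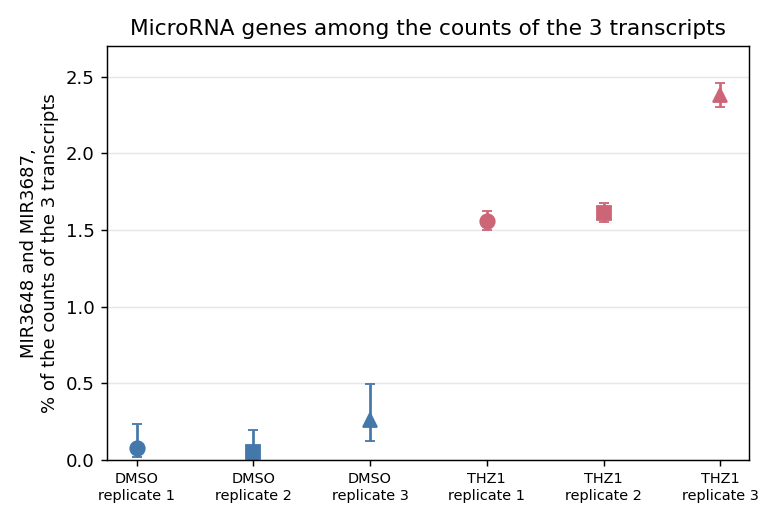
MIR3648 and MIR3687 as a percentage of the summed counts of the 3 transcripts in each library; bars are exact 95% binomial intervals, which cover counting error only. The THZ1-treated libraries (red) lie between 1.56% and 2.38%, all above the DMSO-treated libraries (blue), which hold 3, 2 and 9 microRNA gene counts. The 3 transcripts were chosen for their higher values with THZ1, so nothing is read from this difference between treatments.

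The spread between the THZ1-treated libraries was large for the microRNA genes and not for ENSG00000266658. Among the 1264 genes with at least 1000 counts in every THZ1-treated library, the coefficient of variation of the CPM over these libraries had a median of 3.45%. MIR3648 had the highest of all, 31.0%, and MIR3687 the second highest, 20.3%. ENSG00000266658, at 4.80%, ranked 361. For both microRNA genes THZ1 replicate 3 stood above the other two, and it held 1.63 times their mean CPM for MIR3648 and 1.39 times for MIR3687. They had the 2 highest such ratios of the 1264 genes, ahead of SPEN, a transcriptional corepressor, at 1.21 and CLTC, the clathrin heavy chain, at 1.19. The genes lie side by side in 1 stretch and are not independent observations of that library. These ranks describe 3 libraries and were not tested.

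**Figure D4:**
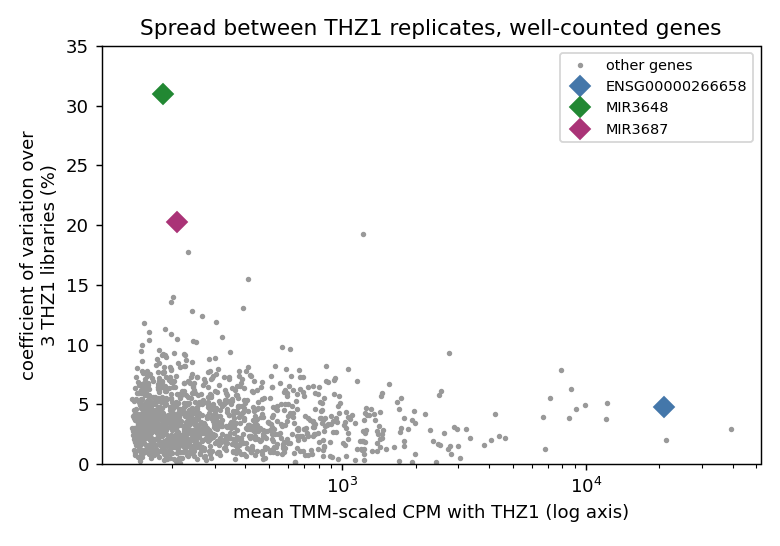
Coefficient of variation of CPM over the 3 THZ1-treated libraries (y axis, percent) against mean TMM-scaled CPM with THZ1 (x axis, log scale) for the 1264 genes with at least 1000 counts in each of them. MIR3648 (31.0%) and MIR3687 (20.3%) lie at the top, and ENSG00000266658 (4.80%) lies among the other genes.

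Few genes near by can be compared with them. Within 1 Mb on either side, 10 genes of the count table are annotated, and MIR3648 and MIR3687 were the only 2 with any count in the 6 libraries. The other 8, among them the pseudogene TEKT4P2, had 0 counts in each, which allows up to 3 counts in a library. Among the 703 microRNA genes with counts, MIR3687 and MIR3648 ranked 100 and 116 by mean CPM with DMSO and 2 and 3 with THZ1. MIR1282, which overlaps another gene, ranked 1 with 346 ± 32.5 CPM, against 181 ± 29.6 CPM with DMSO. MIR3661 followed MIR3648 and was not called, with 49.3 ± 1.56 CPM in DMSO and 56.1 ± 7.89 CPM in THZ1. The next 3 were hsa-mir-4537, AL122127.4 and AL122127.2 on chromosome 14, with 47.3, 41.2 and 38.4 CPM with THZ1 against 8.46, 7.48 and 5.66 CPM with DMSO. Over all genes tested, edgeR called 43.5% higher and 41.1% lower. Of the 96 microRNA genes tested, MIR3648 and MIR3687 included, 72 were called higher by edgeR and 12 were called lower. Of the 25 that overlap no other annotated gene, 23 were higher and 1 lower. These counts are partly fixed by the filter on low counts: 49 of the 96 and 16 of the 25 had fewer than 10 counts in every DMSO-treated library and could pass it only through the THZ1-treated libraries. Reads of a host gene may be counted on an overlapping microRNA gene, and 71 of the 96 overlap another gene on either strand. How strand and overlap were treated is not given in the sources used here. Among the 2367 identifiers without an annotation entry, ENSG00000266658 had the highest CPM with THZ1, and the next, ENSG00000117289, had 409 CPM. The high ranks with THZ1 of ENSG00000266658, MIR3648 and MIR3687 restate how they were chosen.

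Genes with the most similar pattern were looked for by the root mean square distance between log2 CPM profiles over the 6 libraries, each centred on its own mean. The nearest to ENSG00000266658 were ENSG00000268000 (distance 0.08), ADAMTSL4 (0.12), ABHD17AP3 (0.12), ENSG00000272060 (0.13) and ENSG00000262202 (0.13). Of these, ENSG00000268000 and ABHD17AP3 had 0 counts in every DMSO-treated library, where the log2 level is set by the prior count of 2 and not measured. ENSG00000272060, the only one of these with counts above 10 in every library, had 47, 53 and 48 counts with DMSO and 1873, 1918 and 1838 with THZ1. For MIR3648, the nearest were PLEKHA3P1 (0.43), MIR3687 (0.47), NAT16 (0.72), TRPM5 (0.73) and ENSG00000268355 (0.78). PLEKHA3P1 and TRPM5 had 0 counts in every DMSO-treated library and MIR3648 at most 3, so these distances and their order depend on the prior count.

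RNAs for RNA polymerase I and for the factors that make the rRNA precursor changed in both directions. Of the 13 polymerase I subunits, all tested, 3 were called higher and 7 lower (edgeR's quasi-likelihood test, adjusted p-value under 0.05). The same limit called 43.5% of all genes higher and 41.1% lower. The median log2 fold change of the subunits was −0.29, against 0.03 over all genes tested. POLR1A, the largest subunit, fell from 147 ± 14.2 CPM to 52.5 ± 1.45 CPM (log2 fold change −1.49, adjusted p = 6.1e-17). POLR1B, the second largest, fell from 78.1 ± 1.22 to 28.8 ± 3.73 CPM, and POLR2H, which is shared by the nuclear RNA polymerases, from 69.9 ± 6.77 to 25.0 ± 2.99 CPM. The subunits that rose were POLR1F (log2 fold change 0.89), POLR2L (0.61) and POLR1D (0.49). POLR1C, POLR2F and POLR2K were not called, with log2 fold changes of 0.05, −0.02 and −0.14.

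Of the 16 initiation, elongation and termination factors, 15 were tested, and 3 were higher and 8 lower, while 5 were higher with upper quartile factors. UBTF, which binds along the ribosomal DNA, rose from 268 ± 8.77 CPM to 421 ± 4.19 CPM (log2 fold change 0.65, adjusted p = 9.3e-11 by edgeR). RRN3, which brings the polymerase to the promoter, rose from 95.1 ± 1.65 to 185 ± 15.1 CPM, a log2 fold change of 0.96. BAZ2A, a subunit of the complex that silences ribosomal DNA, rose from 131 ± 19.1 to 446 ± 14.8 CPM, a log2 fold change of 1.77. In the promoter factor SL1, TAF1A (−0.97), TAF1D (−0.36) and TBP (−1.14) fell, while TAF1B (−0.19) and TAF1C (0.15) were not called. TTF1, the termination factor, fell by 1.09 on the log2 scale. Among the nucleolar proteins, NCL (nucleolin) had the lowest log2 fold change, −2.03 (adjusted p = 1.6e-22), followed by TCOF1 with −1.67 and NPM1 with −1.56. DDX21 was called lower at −0.26, NOLC1 and SMARCA5 were not called, and CAVIN1 was not tested. The calls of POLR2E (−0.29) and DDX21 were lost with upper quartile factors, with adjusted p-values of 0.22 and 0.35, and no direction of a called gene turned in these 2 lists under another scaling. With library sizes alone, more were called lower, 10 subunits and 11 factors. Of the genes tested in them, 10 subunit and 9 factor genes overlap another annotated gene, whose reads cannot be told apart without the strand setting.

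The genes that process the 5′ ETS and those that degrade spacer RNA were lower more often than higher, by counts that were not tested against other genes. Over all genes tested, 43.5% were called higher and 41.1% lower, with a median log2 fold change of 0.03. Of the 25 genes of the small subunit processome, which assembles on the 5′ ETS, 6 were higher and 15 lower, with a median of −0.49. WDR75 (log2 fold change −1.96) and RRP9 (−1.83) were the lowest, and NOP56 (1.60), a core protein of box C/D small nucleolar ribonucleoproteins, and IMP3 (0.99) the highest. Of the 22 genes of the nuclear exosome and its helpers, 4 were higher and 14 lower, with a median of −0.44. MPHOSPH6 was the lowest, falling from 43.4 ± 4.26 CPM to 10.2 ± 1.61 CPM (log2 fold change −2.09), and EXOSC5 followed with −1.74. TENT4A, a poly(A) polymerase, was the highest at 1.45, and EXOSC6 followed with 1.02. Of the 16 genes of microRNA processing and loading, 5 were higher and 10 lower, with a median of −0.44. DICER1, which cuts the hairpin, rose from 70.8 ± 9.91 to 186 ± 14.4 CPM (log2 fold change 1.39), and the Argonaute gene AGO2 rose by 1.09 on the log2 scale. AGO4 and PRKRA were the lowest, at −2.69 and −1.33. With library sizes alone, 3 processome genes and 2 microRNA processing genes were higher, and TARBP2 turned from 0.22 to −0.03. Upper quartile factors went the other way. With them the lower calls of RCL1, EXOSC1, EXOSC3 and DROSHA were lost, with adjusted p-values of 0.53, 0.2, 0.22 and 0.14 by edgeR. RCL1 was also lost with RLE size factors (adjusted p = 0.097 by edgeR). Of the genes tested, 15 processome, 15 exosome and 14 microRNA processing genes overlap another annotated gene, whose reads cannot be told apart without the strand setting.

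Some structural RNAs that carry no poly(A) tail and both mitochondrial rRNAs were higher with THZ1 too. Of the 14 nuclear structural RNAs of the list found in the table, 7 were tested and called higher, against 43.5% of all genes tested. For 5 of the 7, which had fewer than 10 counts in every DMSO-treated library, the filter could be passed only through the THZ1-treated libraries, so that the direction was fixed. RN7SK and RN7SL2, the others of the 7, could have gone either way. Both overlap another annotated gene, whose reads may be counted on them, and both share sequence with many pseudogenes. RN7SK, the 7SK RNA that restrains P-TEFb, had 31, 32 and 27 counts with DMSO and 237, 464 and 280 with THZ1 (log2 fold change 4.14, adjusted p = 1.2e-17 by edgeR). RN7SL2, the RNA of the signal recognition particle, had 88, 85 and 73 counts with DMSO and 987, 1365 and 1116 with THZ1 (log2 fold change 4.52). SNORD3A, the U3 RNA that pairs with the 5′ ETS, had 0, 0 and 4 counts with DMSO and 86, 87 and 85 with THZ1. SNORD13, which acts in 18S rRNA maturation, had 0 counts in every DMSO-treated library and 41, 48 and 46 with THZ1, and was at least 24.3-fold higher. TERC, the telomerase RNA, had 2, 1 and 1 counts with DMSO and 185, 185 and 192 with THZ1, and RNU5A-1, a spliceosomal RNA, 4, 0 and 0 against 16, 22 and 14. Both mitochondrial rRNAs rose, MT-RNR2 from 1269 ± 31.3 to 9930 ± 494 CPM (log2 fold change 2.97) and MT-RNR1 from 331 ± 16.1 to 1220 ± 235 CPM (1.88). All mitochondrially encoded genes together took 4.32% to 4.37% of the counts with DMSO and 12.6% to 13.6% with THZ1. The rRNAs took 0.169% to 0.181% of the counts with DMSO and 0.953% to 1.08% with THZ1. Annotated nuclear rRNA genes and pseudogenes other than the 3 transcripts took 0.00107% to 0.00118% and 0.00363% to 0.00403%. Of the 6 tested, 4 were higher and 0 lower by edgeR, against 43.5% and 41.1% of all genes tested. How many of the 6 could pass the filter only through the THZ1-treated libraries was not determined, so their direction may be partly fixed. THZ1 replicate 2 was the highest library for ENSG00000266658, for both mitochondrial rRNAs and for 5 of the 7 structural RNAs, in CPM. For MIR3648 and MIR3687 it was THZ1 replicate 3. The share of all genes that were highest in each library was not computed. Some margins were small, as for SNORD3A with 86, 87 and 85 counts, so nothing is read from which library was highest. How the libraries selected RNA with and without a poly(A) tail is not given in the sources used here, and its part in these values was not tested.

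**Figure D5:**
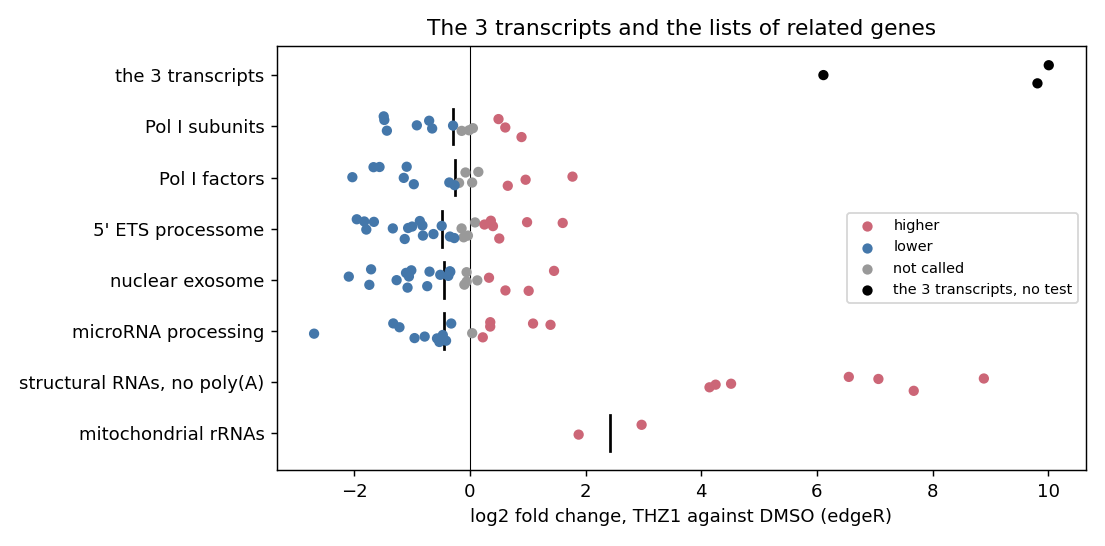
Log2 fold changes (x axis, THZ1 against DMSO, edgeR) of the genes tested in each list; red, blue and grey points were higher, lower or not called at an adjusted p-value below 0.05, black points are the 3 transcripts, for which no test is given, and vertical bars are list medians. The lists of proteins have medians between −0.49 and −0.26, and of the structural RNAs, which have no median drawn, 5 of 7 could pass the filter only through the THZ1-treated libraries.

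Since ENSG00000266658 held 1.92% of the counts with THZ1, the 3 transcripts were also taken out of the table before the libraries were scaled. The TMM factors then moved from 1.06 to 1.11 with DMSO to 1.05 to 1.10, and with THZ1 from 0.914 to 0.920 to 0.923 to 0.930. The fold changes of the other genes were shifted by a median of 0.00022 on the log2 scale. Another scaling moved them more, by a median of 0.19 with upper quartile factors and of −0.25 with library sizes alone, against 0.07 with RLE size factors.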

How the data were processed

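RNA-SEQ of 6 NALM6 libraries was analysed, 3 treated with DMSO and 3 with 500 nM of THZ1 for 24 h, grouped by the sample titles. The authors filtered the reads (cutadapt is named in the submitters' processing notes), mapped them to GRCh37 with STAR and deposited raw counts per gene from htseq-count. Its strand setting, gene annotation and handling of reads with several matches are not given in the sources used here. The authors also deposited values on a log2 scale of FPKM from RSEM, whose log2 step and later adjustment are likewise not given, beside 3 columns of their own comparison (fold change, p-value and FDR), which were not used.

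Genes were filtered with edgeR's filterByExpr (minimum count 10, minimum total 15), scaled by TMM and tested by quasi-likelihood, with p-values adjusted after Benjamini-Hochberg over 16622 genes. All tests are two-sided. Calls were made at an adjusted p-value below 0.05, and again with log2 fold changes of 1.5 or more in either direction. P-values set the difference between treatments against the spread between these libraries, which may be technical. Standard errors were derived from the fold change and the F statistic. CPM are TMM-scaled unless said to be of the library total. Annotation entries were found for 55538 of the 57905 identifiers. The sequence of MIR3648 is not reported here. Copies were searched with BLAST 2.17.0 (word size 16, and 28 for the segment) in GRCh37. The 3 transcripts and the gene lists were chosen with earlier results of these data known. Named were the 3 transcripts, any gene of the polymerase I lists, the 2 highest and 2 lowest of the other lists, all genes near by with at least 10 counts, the 5 nearest patterns and the 5 other microRNA genes highest with THZ1. SPEN, CLTC, TEKT4P2, ENSG00000117289, RN7SL2, SNORD3A and the genes whose calls depend on scaling were chosen after their values were seen. The pipeline was tested on simulated counts. Replicate libraries differed by more than sampling noise (chi-square per gene of 1.81 to 9.35). Alternatives were other scalings, filters, DESeq2, a replicate block, each library left out, other denominators, counts per kb and limma on the FPKM values. R 4.3.3, edgeR 4.0.16, limma 3.58.1, DESeq2 1.42.0 and Python 3.11.15 were used.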

Additional observations from a re-analysis of the deposited data

How the results depend on the processing

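The directions of the log2 fold changes of ENSG00000266658, MIR3648 and MIR3687 were the same under all alternatives run. They were chosen for this direction in the same libraries, so nothing is read from that. The log2 fold change of ENSG00000266658 was 6.31 with upper quartile factors, 5.86 with library sizes alone and 6.24 under a filter of 10 or more counts in each of the libraries, which MIR3648 and MIR3687 did not pass. With each library left out in turn it was 6.06 to 6.14, for MIR3648 9.68 to 10.38 and for MIR3687 9.22 to 11.08. The share of ENSG00000266658 with THZ1 was 2.21% of the counts on genes that are not mitochondrially encoded. Per kb, MIR3687 had a mean of 3.44 times the counts of MIR3648 with THZ1. At a log2 fold change of at least 1.5, 6996 genes were higher with no filter, and 1821 were higher and 1178 lower under that count filter, where fewer genes are tested. Of the polymerase I factors 5 were higher with upper quartile factors and 5 with that count filter, 3 processome genes and 2 microRNA processing genes were higher with library sizes alone, and 2 structural RNAs were left to be called with that filter. Of the 25 microRNA genes tested that overlap no other gene, 23 were higher and 1 lower (43.5% and 41.1% over all genes tested). Of these 25, 16 could pass the filter only through the THZ1-treated libraries. The cause of the shifts between settings was not tested. Of 396 alternative values, 323 stayed within the spread between libraries or within 1.5 times the count, and 73 moved. Libraries with the same number did not deviate together (correlations of −0.004, 0.001 and 0.021 between same-numbered libraries, and −0.018 to 0.017 between others). Whether they were handled together is not given in the labels. With a replicate block, 4093 genes were higher and 2140 lower at that fold, and the log2 fold change of ENSG00000266658 was 6.11. The few DMSO counts of MIR3648 and MIR3687 limit the precision of their ratios.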
